A study of Homo sapiens with 16 samples.

Results

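Heat shock proteins and other chaperones were read as a group of 37 genes in HCT116 and RKO, 2 cell lines from human colon cancers. The list was set by name and compartment: 22 cytosolic chaperones and co-chaperones, 8 of the endoplasmic reticulum (ER), 4 of mitochondria, and 3 regulators or other genes (HSF1, HSF2 and HSPB11). Of 54675 probe sets on each array, 76 carried the symbol of a member alone, or that of HSPA1A and HSPA1B together. They gave 34 of the 37 members a value, as 33 entries, out of 19776 named genes. HSPA1A and HSPA1B shared 1 entry, and each entry was the probe set with the highest mean signal of its gene. HSPA8 had only probe sets that also carry the names of small nucleolar RNAs of its introns, so its values are given but not counted. AHSA1 and HSF2 had no named probe set in the annotation used here and are not analysed here.

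The series held 16 arrays, 1 for each of 8 conditions in each line, from cells treated for 3 days. Each line had a condition labelled control. The drugs were the PARP inhibitor PJ-34, 5-aza-dC (5-aza-2′-deoxycytidine), which inhibits DNA methyltransferases, and TSA (trichostatin A), which inhibits histone deacetylases. Both lines received each of these 3 drugs alone and in every combination. 5-aza-dC was used at 0.5 µM and TSA at 150 nM, and PJ-34 at 3 µM in HCT116 and at 2 or 3 µM in RKO, for which the sources used here give different doses. The study asked how adding PJ-34 changes the expression profile left by 5-aza-dC, with TSA for comparison. No condition was repeated within a line, so a drug was tested as the 4 arrays of a line with it against the 4 without it, the other drugs being balanced between the sides, and p-values then measure only the spread between these arrays. A change was called at an adjusted p under 0.05 over all probe sets tested.

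Chaperones bind unfolded or newly made proteins and help them to fold, or hand them on for degradation. In the cytosol the HSP70 proteins (HSPA genes) work with J-domain partners (DNAJ genes) and the nucleotide exchange factors HSPH1 and BAG3, and pass some clients to HSP90. The ER has its own HSP70 (HSPA5, or BiP) and HSP90 (HSP90B1, or GRP94), mitochondria have HSPA9 and the chaperonin HSPD1 with its lid HSPE1, and the genes of the cytosolic and ER sets are classically induced by separate stress pathways, the heat shock response through HSF1 and the unfolded protein response.

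The promoters of 5 members are printed because these pathways act through separate DNA elements. Each sequence is the 250 bases before a RefSeq start site (build GRCh38.p14), written 5′ to 3′ on the strand of the gene. Capitals mark the fixed letters of the heat shock element GAANNTTCNNGAA in the first 3 (HSPA8, HSP90AA1 and HSPH1) and those of the ER stress element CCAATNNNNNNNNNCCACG in the others, each searched on both strands.
HSPA8, chr11:123062137-123062386, minus strand: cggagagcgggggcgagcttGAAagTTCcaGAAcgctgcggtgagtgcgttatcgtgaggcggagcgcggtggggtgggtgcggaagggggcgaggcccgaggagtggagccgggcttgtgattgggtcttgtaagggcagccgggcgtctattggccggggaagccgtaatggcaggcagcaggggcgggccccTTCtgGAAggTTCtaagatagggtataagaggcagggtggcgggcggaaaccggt
HSP90AA1, chr14:102087045-102087294, minus strand: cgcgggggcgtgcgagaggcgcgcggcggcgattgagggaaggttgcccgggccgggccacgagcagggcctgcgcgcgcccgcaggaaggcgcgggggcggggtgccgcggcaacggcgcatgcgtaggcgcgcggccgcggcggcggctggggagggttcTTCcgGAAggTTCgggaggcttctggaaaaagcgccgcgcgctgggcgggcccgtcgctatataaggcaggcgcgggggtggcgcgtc
HSPH1, chr13:31162389-31162638, minus strand: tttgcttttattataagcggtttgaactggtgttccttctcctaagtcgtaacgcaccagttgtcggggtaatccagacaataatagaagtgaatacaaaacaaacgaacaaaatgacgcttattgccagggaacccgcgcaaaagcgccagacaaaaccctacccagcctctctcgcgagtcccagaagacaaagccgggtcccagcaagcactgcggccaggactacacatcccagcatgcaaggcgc
HSPA5, chr9:125241344-125241593, minus strand: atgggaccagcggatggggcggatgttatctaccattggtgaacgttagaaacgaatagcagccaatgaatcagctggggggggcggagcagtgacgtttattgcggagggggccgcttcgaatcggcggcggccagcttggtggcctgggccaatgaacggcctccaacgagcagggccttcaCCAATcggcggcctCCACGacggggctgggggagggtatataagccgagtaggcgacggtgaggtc
HSP90B1, chr12:103930160-103930409, plus strand: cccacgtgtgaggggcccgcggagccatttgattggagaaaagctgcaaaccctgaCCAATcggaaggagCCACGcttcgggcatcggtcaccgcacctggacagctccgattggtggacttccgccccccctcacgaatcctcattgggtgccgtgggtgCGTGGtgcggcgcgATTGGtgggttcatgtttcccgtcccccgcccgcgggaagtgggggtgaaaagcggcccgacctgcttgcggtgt

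HSPA8, the constitutive cytosolic HSP70, held the heat shock element at 230 and 55 bases before its start, HSP90AA1, the inducible HSP90, at 88 bases, and HSPH1 held no match. HSPA5 held the ER stress element at 66 bases and HSP90B1 at 194 and 89 bases. Of the 33 members with a promoter in the table, 7 held the heat shock element in at least 1 of their promoters (DNAJB6, HSP90AA1, HSP90AB1, HSPA6, HSPA8, HSPD1 and SERPINH1), against 0.441% of all 35116 promoters. The ER stress element was found in 2 members, both of the ER, against 0.074% of all promoters. The shorter CCAAT box, which the ER stress element contains, was found in 7 of 8 ER members and in 7 of 20 cytosolic members with a promoter, against 32% of all promoters. A match is a description of the letters, and a gene without one may hold an element that differs from these letters.

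The labels of 2 RKO arrays went against the data. Over the 13 probe sets that rose at least 16-fold with 5-aza-dC alone in RKO, the median ratio to the RKO control array was 69.7 in the array labelled PJ-34 and 1 in that labelled PJ-34/5-aza-dC, whereas it was 26.4 to 35.5 in the other 3 arrays with 5-aza-dC and 1 in the other 2 treated arrays without it. In HCT116 the same measure, over 45 probe sets, followed the labels. It was 4.85 to 25.4 in the arrays with 5-aza-dC in combination and 1 to 1.06 in the treated arrays without it. The array with 5-aza-dC alone served to choose the probe sets, so its own ratio (27.8 in HCT116, 31.95 in RKO) is no check of its label. All values below use the labels as given. Both labels include PJ-34 and neither includes TSA, so the log2 differences for TSA and PJ-34 in RKO are the same whichever array is which, while their errors and p-values, the 5-aza-dC comparison and the interaction of PJ-34 with 5-aza-dC depend on these labels. HCT116 carried the epithelial genes EPCAM (28158 to 35438 signal units) and CDH1 (5297 to 10572). RKO had EPCAM at 3544 to 4139 and CDH1 at 3.9 to 117, close to background. The keratin KRT18 was bright in both lines (75723 to 125452 in HCT116, 14319 to 16263 in RKO), while KRT8 and KRT19 were at most 520 in RKO. The gut markers VIL1, CDX2 and LGALS4 were dim in both lines. Of the fibroblast genes COL1A1 read 491 to 3518 in HCT116, and the other fibroblast and blood genes with a probe set were at most 590. The 2% trimmed mean signal was 1000.1 on the RKO control array and close to it on all arrays, which is the scale of every signal given here.

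Among the drug comparisons within a line, only TSA in HCT116 gave calls among the chaperones. Of 32 members tested, 9 rose and 2 fell, while 5.97% of all 14597 genes tested rose and 6.1% fell. Among genes with a mean signal of at least 1000, 11.1% rose and 8.42% fell, and of the 28 members that bright, 8 rose and 2 fell. The median log2 difference of the members was 0.23, against -0.03 for all genes. By compartment, 7 of 18 cytosolic members rose and none fell (median 0.35, with 16 of 18 above 0), 1 of 8 ER members rose and 2 fell (median -0.07), and 1 of 4 mitochondrial members rose (median 0.18). In such bulk samples fewer cells of a type and less RNA per cell cannot be told apart.

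**Figure D1:**
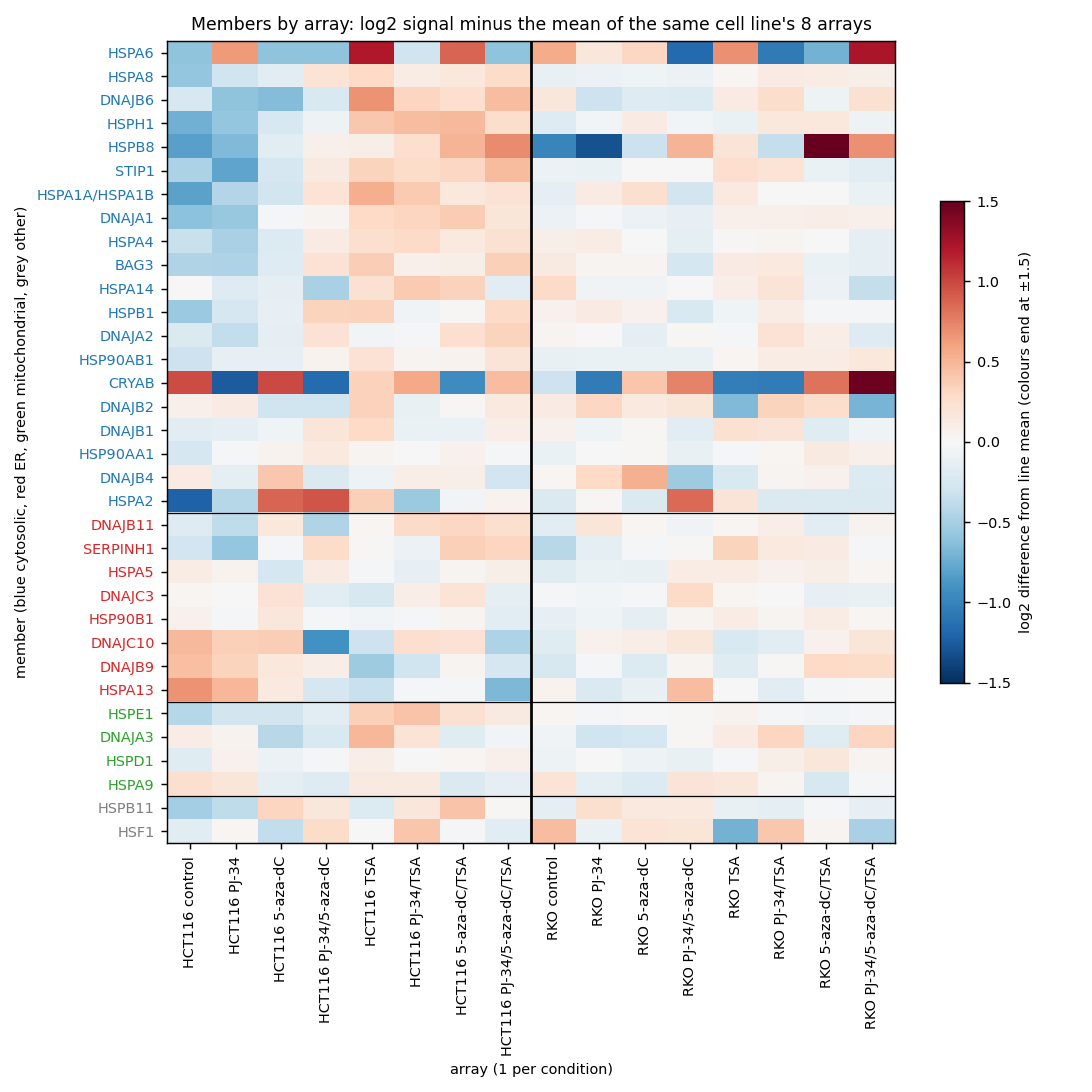
Each row is a member (HSPA8 included) and each column an array, and the colour is the log2 signal, with values under 50 set to 50, minus the mean of the same line's 8 arrays, with colours ending at 1.5 in either direction. Most cytosolic rows of HCT116 run from blue in the control and PJ-34 arrays to red in the arrays with TSA, RKO rows are mostly pale, apart from dim members such as HSPB8 (62.8 to 465 in RKO), HSPA6 and CRYAB (at most 287 in both lines).

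HSPH1 (HSP105, probe set 206976_s_at), a nucleotide exchange factor of HSP70, had the smallest p of the members. Its HCT116 signal was 6552 in the control array, 7252 with PJ-34, 9182 with 5-aza-dC and 10226 with PJ-34/5-aza-dC. With TSA it was 14285, and it was 14883 when PJ-34 was added to TSA, 15111 when 5-aza-dC was added and 12964 with all 3 drugs. All 4 arrays with TSA lay above all 4 without it. The difference was 0.81 on the log2 scale (SE 0.12, 1.75-fold, adjusted p = 0.00208, limma).

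STIP1 (HOP, 213330_s_at), the adaptor that hands clients from HSP70 to HSP90, was 9500.2 in the HCT116 control array, 7591 with PJ-34, 11038 with 5-aza-dC and 14503 with PJ-34/5-aza-dC. The arrays with TSA read 16583, 15988 with PJ-34, 16335 with 5-aza-dC and 18244 with both. The groups did not overlap, and the difference was 0.69 (SE 0.13, 1.62-fold, adjusted p = 0.00645).

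DNAJA1 (200881_s_at), a J-domain partner of cytosolic HSP70, was 17742 in the control array, 18309 with PJ-34, 26852 with 5-aza-dC and 27956 with PJ-34/5-aza-dC. With TSA it was 33405, 33948 with PJ-34 added, 35540 with 5-aza-dC added and 30967 with both added. The groups did not overlap, although the arrays with 5-aza-dC and no TSA stood between the control arrays and those with TSA. The difference was 0.59 (SE 0.12, 1.5-fold, adjusted p = 0.0105).

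The stress-inducible HSP70 genes HSPA1A and HSPA1B (shared probe set 202581_at) read 3927 in the HCT116 control array, 5031 with PJ-34, 5669.6 with 5-aza-dC and 7888 with PJ-34/5-aza-dC. The arrays with TSA read 9979, 9025 with PJ-34, 7649 with 5-aza-dC and 7951 with both. The PJ-34/5-aza-dC array lay within the range of the arrays with TSA, and the difference was 0.66 (SE 0.16, 1.58-fold, adjusted p = 0.0247). A second shared probe set, 200799_at, was dim and went the other way, with a log2 difference of -1.91 (SE 0.47, adjusted p = 0.0226). It read 1309 with 5-aza-dC and 1846 with PJ-34/5-aza-dC and between 10.7 and 210 in the other 6 HCT116 arrays. A further probe set, 200800_s_at, which also carries the name HSPA1L, was brighter than 200799_at. In HCT116 it read 1853 to 3634 without TSA and 3399 to 5726 with it, the groups overlapping.

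DNAJB6 (209015_s_at), a J-domain protein known for holding back aggregation, read 1332 in the control array, 1034 with PJ-34, 999.7 with 5-aza-dC and 1341 with PJ-34/5-aza-dC. The 4 arrays with TSA ranged from 1878 to 2502, above all the others (difference 0.86, SE 0.16, adjusted p = 0.00665). The brighter probe sets of DNAJB6, which also carry the name TMEM135, showed differences of -0.02 (SE 0.11) and 0.18 (SE 0.13), so the rise rests on 1 probe set.

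The other cytosolic members that rose were HSPB8, a small heat shock protein that works with BAG3 (0.78, SE 0.20, adjusted p = 0.0266, from 350 to 651 without TSA to 654 to 1006 with it), and HSPA4, a nucleotide exchange factor of the HSP110 family (0.45, SE 0.12, adjusted p = 0.0285). HSPA4 read 8809 to 13411 without TSA and 13645 to 15057 with it. BAG3 missed the threshold with a difference of 0.45 (adjusted p = 0.0523), as did HSPA14 with 0.40 (adjusted p = 0.0686), whose next probe set, 227650_at, was called at 0.68 (adjusted p = 0.00714). HSPA8 read 59278 in the control array (210338_s_at), 72021 with PJ-34, 79427 with 5-aza-dC, 102145 with PJ-34/5-aza-dC and 95574 to 109150 in the arrays with TSA, so that the PJ-34/5-aza-dC array lay within their range. Its 4 probe sets gave log2 differences of 0.42 to 0.63, with adjusted p from 0.0126 to 0.0402.

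The cytosolic HSP90 genes were not called. HSP90AA1 read 83609 to 110160 without TSA and 98780.4 to 104415 with it (difference 0.05, 95% interval -0.16 to 0.25), and HSP90AB1, the constitutive HSP90, 63628 to 81867 and 81117 to 91370.2 (difference 0.25, SE 0.10, adjusted p = 0.122), although a dimmer probe set of HSP90AB1, 214359_s_at, was called at 0.37 (adjusted p = 0.0328). DNAJB1, the HSP40 that is a classical heat shock gene, read 7229 to 9259 without TSA and 7610.2 to 9998 with it, and its interval reached from -0.17 to 0.36. HSPB1 (HSP27) had a difference of 0.30 (SE 0.14, adjusted p = 0.213). HSF1, the regulator of the heat shock response, had a difference of 0.12 (SE 0.17) in its own mRNA, which is not its activity.

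**Figure D2:**
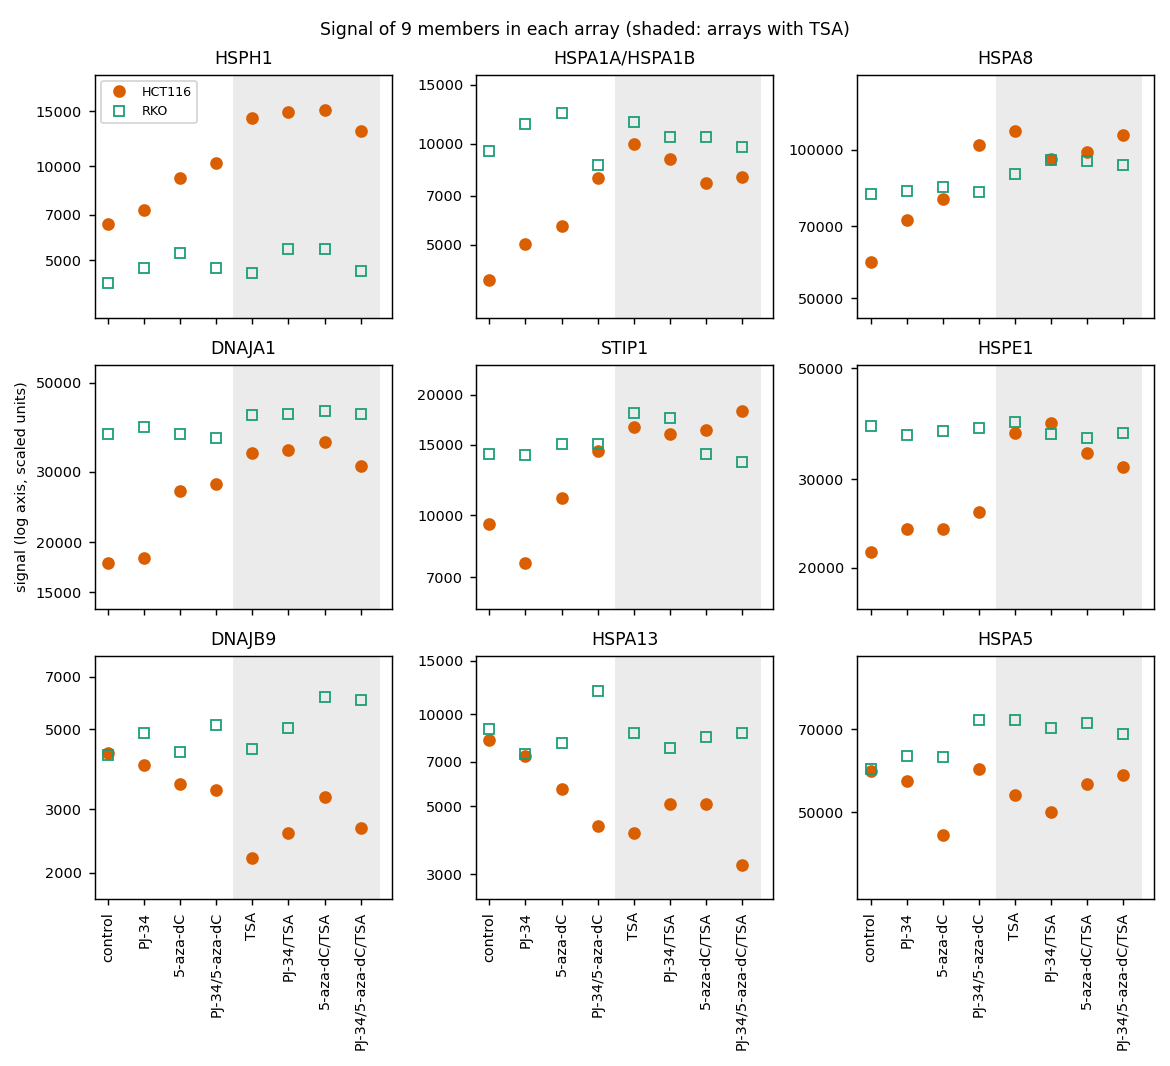
Points are the signals of 9 members in each array on log axes in scaled units, filled circles HCT116 and open squares RKO, with the 4 conditions that include TSA shaded. In HCT116 the control and PJ-34 arrays are low for the first 6 genes, HSPH1 rising from 6552 to as much as 15111, while the RKO squares stay level, and DNAJB9 and HSPA13 run downwards in HCT116.

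The ER members of HCT116 included calls in both directions. DNAJB9 (ERdj4, 202842_s_at), a J-domain protein that promotes degradation of misfolded ER proteins, read 4311 in the control array, 3971 with PJ-34, 3519.7 with 5-aza-dC and 3389 with PJ-34/5-aza-dC, and 2192 to 3255 in the arrays with TSA. On the log2 scale it fell by 0.52 (SE 0.14, adjusted p = 0.0389), and the groups did not overlap. HSPA13, a microsome-associated HSP70, fell by 0.53 (SE 0.15, adjusted p = 0.0443), from 4315 to 8239 without TSA to 3220.3 to 5087 with it, the groups overlapping.

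DNAJB11 (ERdj3), a J-domain partner of BiP, rose by 0.43 (SE 0.13, adjusted p = 0.0462) with overlapping groups. HSPA5 read 45573 to 59652 without TSA and 49987 to 58120 with it (difference -0.02, 95% interval -0.24 to 0.21), and HSP90B1 19331 to 22317 and 17499.6 to 20349 (difference -0.10, interval -0.29 to 0.09). The collagen chaperone SERPINH1 (HSP47) had a difference of 0.30 (SE 0.13, adjusted p = 0.157), and DNAJC3 and DNAJC10 were not called.

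Of the mitochondrial members, HSPE1 (HSP10, 205133_s_at) read 21516 in the control array, 23917 with PJ-34, 23874 with 5-aza-dC and 25863 with PJ-34/5-aza-dC. The arrays with TSA read 37129.8, 38814 with PJ-34, 33883 with 5-aza-dC and 31735 with both. The groups did not overlap, and the difference was 0.57 (SE 0.10, 1.49-fold, adjusted p = 0.00411). Its partner HSPD1 (HSP60) read 91375 to 108214 and 104415 to 111386 (difference 0.11, interval -0.08 to 0.30), and HSPA9, the mitochondrial HSP70, had a difference of -0.04. DNAJA3, the J-domain partner of HSPA9, had a difference of 0.24 (adjusted p = 0.169).

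These calls differed in how far they rested on single arrays. HSPH1, STIP1, DNAJB6 and HSPE1 stayed past the threshold when any 1 of the 8 HCT116 arrays was left out. The number of members called was 4 without the control array, 4 without the PJ-34 array, 4 without the PJ-34/TSA array, 6 without the 5-aza-dC array and 6 without the PJ-34/5-aza-dC/TSA array, and it reached 15 without the PJ-34/5-aza-dC array. How many of all genes were called in each of these fits is not given here. Calls ended in 3 of these 8 fits for DNAJA1, in 4 for HSPA1A/HSPA1B (differences of 0.47 to 0.84, adjusted p up to 0.131) and in 5 each for HSPA4 and HSPB8. The HSPB8 call was also lost in 1 fit of all 16 arrays (adjusted p = 0.108), and with a floor of 20 HSPA13 (adjusted p = 0.0507) and DNAJB11 (adjusted p = 0.0518) fell short. The 3 ER calls were the least firm, each ending in 6 of 8 fits, with differences of -0.64 to -0.37 for DNAJB9, -0.70 to -0.34 for HSPA13 and 0.32 to 0.55 for DNAJB11. Without a variance trend in the fit, or without the filter on low signals, no member was called.

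Related genes outside the members were read from 3 lists by compartment. Of 21 cytosolic chaperonin and co-chaperone genes tested for TSA in HCT116, 8 rose and none fell (median 0.32), among them the chaperonin subunits CCT6A (0.49, SE 0.09, adjusted p = 0.00698) and CCT7 (0.47, SE 0.11, adjusted p = 0.0189) and the co-chaperone DNAJC7 (0.40, SE 0.10, adjusted p = 0.0264). Beside the 3 lists, 5.97% of all genes rose and 6.1% fell, or 11.1% and 8.42% of genes with a mean signal of at least 1000. The ER and mitochondrial counts that follow are close to these shares. Of 24 ER folding and unfolded protein response genes, 2 rose and 2 fell. HERPUD1, a stress-induced part of ER-associated degradation, fell by 0.56 (SE 0.10, adjusted p = 0.00392), SDF2L1, a BiP cofactor, rose by 0.76 (SE 0.15, adjusted p = 0.00822), and the lectin chaperone CALR rose by 0.67 (SE 0.14, adjusted p = 0.0117). Of 13 mitochondrial folding and protease genes, 1 rose, GRPEL1, the nucleotide exchange factor of HSPA9 (0.54, SE 0.12, adjusted p = 0.0135).

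In RKO the same TSA comparison called none of 32 members by limma, where 0.00736% of the 13587 genes tested were called. An unadjusted limma p under 0.05 was reached by 6 members and by 4158 of all 33862 probe sets tested. Here and below such counts are not like for like. Members are the brightest probe sets of their genes, while all probe sets include dim ones. HSP90AB1 read 61314 to 61962 in the 4 arrays without TSA and 67681 to 73712 in the 4 with it, a difference of 0.20 (SE 0.06, adjusted p = 0.221). DNAJA1 read 36412 to 38805 and 41569 to 42507.7, a difference of 0.16 (SE 0.06, adjusted p = 0.318). These were the 2 of 32 members tested whose groups did not overlap, and neither was called. The share of all genes without overlap is not given here. The largest RKO difference was that of the dim HSPB8, 1.05 (SE 0.39, 2.07-fold, adjusted p = 0.309), with 62.8 to 222 without TSA and 122 to 465 with it, overlapping but higher with TSA in 4 of 4 pairs of arrays matched on the other drugs. DNAJA3 had a difference of 0.29 (SE 0.11, adjusted p = 0.303), also higher in 4 of 4 pairs. How many of all genes were higher in 4 of 4 pairs is not given here. HSPH1 read 4245 to 5275 and 4549 to 5442 (difference 0.08, interval -0.14 to 0.30), HSPA1A/HSPA1B 8642 to 12374 and 9758 to 11608 (0.02, interval -0.21 to 0.25), and HSPE1 36736 to 38382 and 36339.7 to 39005 (-0.01, interval -0.15 to 0.12). Without the 2 arrays in doubt there were again no calls.

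**Figure D3:**
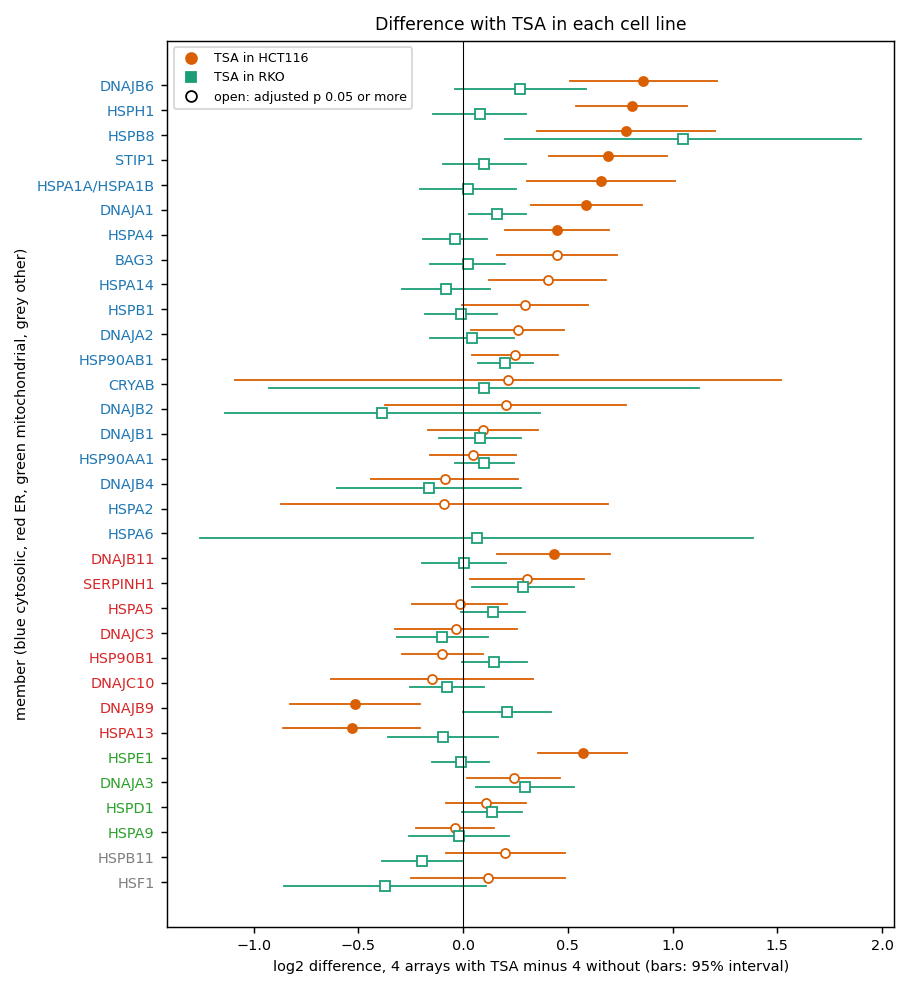
The horizontal axis is the log2 difference between the 4 arrays with TSA and the 4 without it, circles for HCT116 and squares for RKO, with 95% intervals from the limma fits and filled symbols where the adjusted p is under 0.05, for the 33 entries tested in at least 1 line. The 11 filled circles are in HCT116, 7 of them cytosolic, and no square is filled.

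The difference between the lines in the TSA effect was tested in a fit of all 16 arrays. An unadjusted limma p under 0.05 was reached by 13 of 33 members and by 5140 of all 42119 probe sets tested. The difference was called for 1 member, HSPE1 (0.58, SE 0.12, adjusted p = 0.038), while 0.198% of the 16627 genes tested were called higher in HCT116 and 0.415% lower. The call was lost without the 2 RKO arrays in doubt (0.58, adjusted p = 0.174) and in 12 of 16 fits that left out 1 array, all but those without RKO PJ-34, HCT116 TSA, HCT116 PJ-34/5-aza-dC or HCT116 PJ-34/5-aza-dC/TSA, with values of 0.52 to 0.66. Without the HCT116 PJ-34/5-aza-dC array 6 members were called, and the share of all genes called in that fit is not given here. HSPH1 had a difference of 0.73 between the lines (SE 0.17, adjusted p = 0.0676) and DNAJB9 one of -0.72 (SE 0.18, adjusted p = 0.086). The median over the cytosolic members was 0.43 and over the ER members -0.11, against -0.05 for all genes. For most members a call in HCT116 and none in RKO is therefore not shown to be a difference between the lines.

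In HCT116, 5-aza-dC called none of 32 members by limma, while 1.02% of genes were called higher and 0.11% lower. An unadjusted limma p under 0.05 was reached by 10 members and by 3762 of all 35373 probe sets tested, dim ones included. The share among bright genes is not given here. The mitochondrial pair DNAJA3 and HSPA9 stood lowest in p. HSPA9 (200691_s_at) read 25243, 24303, 23475 and 23620 in the arrays with control, PJ-34, TSA and PJ-34/TSA, and 19449, 18701, 18506 and 19515 in the corresponding arrays with 5-aza-dC. The groups did not overlap (difference -0.34, SE 0.09, adjusted p = 0.113). DNAJA3 read 11815 to 16099 without 5-aza-dC and 8576 to 11109 with it (-0.43, SE 0.10, adjusted p = 0.0895). Higher values that also missed the threshold were those of SERPINH1 (0.47, SE 0.13, adjusted p = 0.149) and HSPB11, an intraflagellar transport protein also named IFT25 (0.46, SE 0.13, adjusted p = 0.177). Without the HCT116 TSA array 8 members were called, 4 of them higher and 4 lower, and without the PJ-34/TSA array 1. The shares of all genes called in those fits are not given here, so these counts cannot be set against them.

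In the plot by array some cytosolic genes, DNAJA1 and HSPA1A/HSPA1B among them, were higher with 5-aza-dC where TSA was absent and not where it was present, and the interaction of these drugs was then tested in the HCT116 arrays, after the values had been seen. DNAJA2 had a 5-aza-dC difference of 0.33 both without and with TSA, and HSPA14 one of -0.22 in both. For HSPA1A/HSPA1B the TSA difference was 1.09 (SE 0.17) without 5-aza-dC and 0.22 (SE 0.17) with it, and for DNAJA1 it was 0.90 (SE 0.13) and 0.28 (SE 0.13). The 5-aza-dC difference of DNAJA1 was 0.60 (SE 0.13, adjusted p = 0.0478) without TSA and -0.02 (SE 0.13) with it. The interaction was below 0 in 24 of 32 members, against 53.4% of all genes. It was called for none of the members by limma (0% of genes), and DNAJA1 and HSPA1A/HSPA1B had adjusted p of 0.897 and 0.874. An unadjusted limma p under 0.05 was reached by 6 members and by 1902 of all 35373 probe sets tested.

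In RKO, 5-aza-dC called none of 32 members (0% of genes), with 6 at an unadjusted p under 0.05 in limma, as were 1759 of all 33862 probe sets tested. These values rest on the labels of the 2 arrays in doubt. CRYAB, a small heat shock protein, read 42.4 to 83.2 without 5-aza-dC and 139 to 287 with it, near the background of these arrays (difference 1.73, SE 0.47, adjusted p = 0.882), and it was not tested without those arrays because too few of the others passed the filter. HSPA14 had a difference of -0.26 (SE 0.10), and of -0.36 (SE 0.09, adjusted p = 0.0523) without those arrays. The difference between the lines in the 5-aza-dC effect was called for none of 33 members, against 0.0601% of genes. Of the members 9 were at an unadjusted limma p under 0.05, as were 3118 of all 42119 probe sets tested.

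PJ-34 called none of 32 members in HCT116 (0% of genes) and none in RKO (0% of genes). In both lines no member reached an unadjusted p under 0.05 in limma, while 1323 of all 35373 probe sets did in HCT116 and 895 of 33862 in RKO. In HCT116 the member with the smallest p was HSPA14 (-0.22, interval -0.50 to 0.05), and the median over all members was 0.00. In RKO it was DNAJA3 (0.19, interval -0.04 to 0.43). The difference between the lines in the PJ-34 effect was called for none of 33 members (0% of genes). No member was at an unadjusted limma p under 0.05, against 1480 of all 42119 probe sets tested. A PJ-34 by 5-aza-dC interaction, fitted on all 16 arrays, was called for none (0% of genes), the smallest p being that of DNAJB4 (-0.69, SE 0.22, adjusted p = 0.713). An unadjusted limma p under 0.05 for the interaction was reached by 6 members and by 2872 of all 42119 probe sets tested. This interaction rests on the labels of the 2 RKO arrays in doubt, and without them DNAJB4 had -0.48 (SE 0.22) and the smallest adjusted p was that of DNAJC10 (-0.79, SE 0.20, adjusted p = 0.2), with no calls.

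More members were called between the lines, with 8 arrays on each side, than for any treatment, with 4, and the same held for all genes. Of 33 members, 9 were higher in HCT116 and 12 lower, while 26.8% of all genes tested were higher and 24.2% lower. Among genes with a mean signal of at least 1000, 34% were higher and 37.7% lower, and of 28 members that bright, 6 were higher and 12 lower. The medians were -0.13 for the members and 0.05 for all genes. ER members were mostly lower in HCT116, with 6 lower and 1 higher of 8 (median -0.62), while 6 of 19 cytosolic members were higher and 4 lower (median 0.18). The study's methods name McCoy's or Dulbecco's medium for HCT116 and Dulbecco's medium for RKO, and the part of the medium in these differences was not tested.

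**Figure D4:**
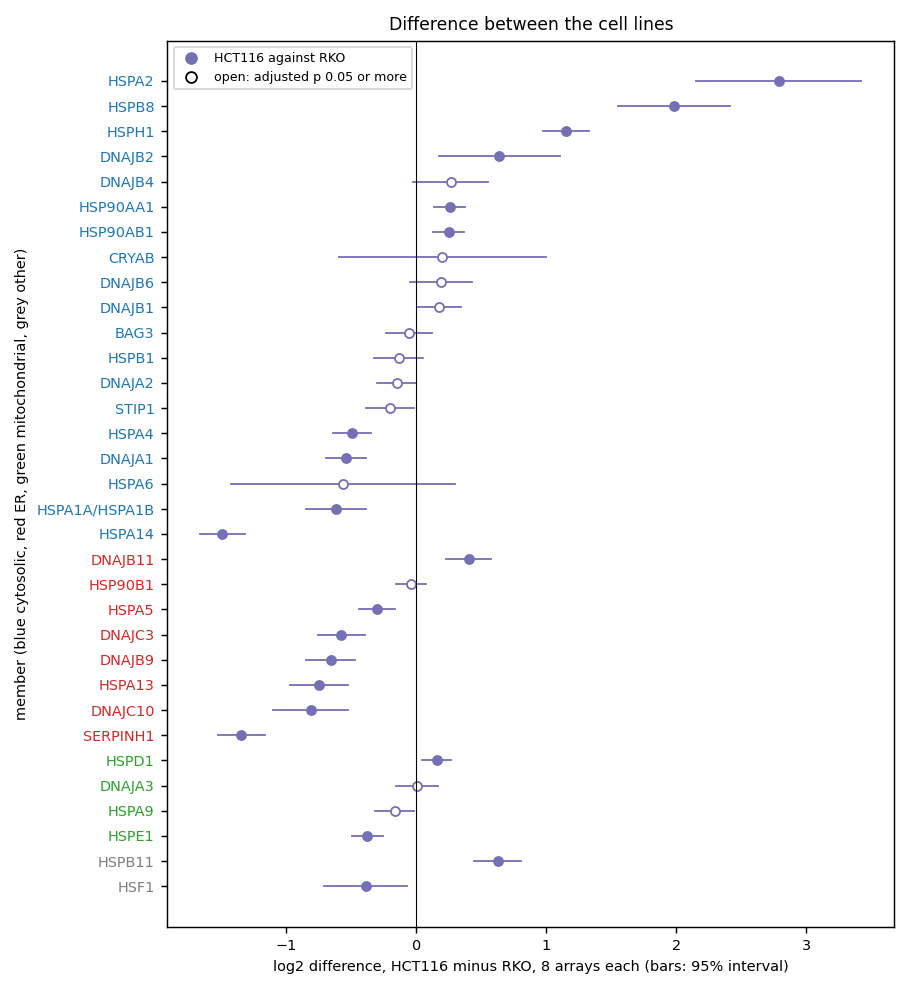
The horizontal axis is the log2 difference of HCT116 minus RKO, 8 arrays each, with 95% intervals from the limma fit and filled symbols where the adjusted p is under 0.05, for the 33 entries. Among the ER members 6 lie to the left of 0 with filled symbols, from SERPINH1 at -1.34 to HSPA5 at -0.30, and the dim HSPA2 lies farthest right at 2.79.

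SERPINH1 had the largest difference of the ER members. Its signal in HCT116 had a lowest value of 2141, a median of 3196 and a highest of 4089, and in RKO 6063, 8114 and 10259, so that the lines did not overlap (-1.34, SE 0.09, adjusted p = 2.64e-10). DNAJC10 (ERdj5), an ER reductase, read 2017 to 5302 in HCT116, with a median of 4453, and 5667 to 7523 in RKO, with a median of 6952 (-0.81, SE 0.14, adjusted p = 7.75e-05). DNAJC3 (p58IPK), a BiP co-chaperone, read 2694 to 3709 and 4361 to 5806 (-0.57, SE 0.09, adjusted p = 1.89e-05). The other 3 called lower were HSPA13 (-0.75), DNAJB9 (-0.66) and HSPA5 (-0.30), whose ranges overlapped between the lines. DNAJB11 was higher in HCT116 (0.40, SE 0.08, adjusted p = 0.000433). In the control arrays alone HSPA5 read 59008 in HCT116 and 59604 in RKO, DNAJB9 4311 and 4234, HSPA13 8239 and 8973, and DNAJC10 5302 and 5848. Control arrays stood further apart for DNAJC3 (3240 and 4680) and SERPINH1 (2619 and 6063). The lowest HCT116 value of DNAJC10 was that of the PJ-34/5-aza-dC array.

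Cytosolic members were called in both directions. HSPH1 in HCT116 had a lowest value of 6552, a median of 11595 and a highest of 15111, and in RKO 4245, 4721 and 5442 (1.15, SE 0.08, adjusted p = 1.6e-09). HSPA14, a ribosome-associated HSP70, read 2198 to 4049.8 in HCT116 and 6735 to 10536 in RKO, with medians of 2953 and 8466 (-1.49, SE 0.08, adjusted p = 2.28e-11). HSPA1A/HSPA1B read 3927 to 9979 and 8642 to 12374, with medians of 7768 and 10499 (-0.61, SE 0.11, adjusted p = 0.000134). Probe set 200800_s_at, which also carries the name HSPA1L, had medians of 3516 in HCT116 and 4965 in RKO. DNAJA1 (-0.54) and HSPA4 (-0.49) were lower in HCT116 without overlap, and HSP90AA1 (0.26) and HSP90AB1 (0.25) were higher, calls that were lost after quantile normalization.

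Dim members made up the far end of the scale. HSPA2, an HSP70 best known from the testis, had a median of 402 in HCT116 and 35.8 in RKO (2.79, SE 0.30, adjusted p = 3.47e-07), and HSPB8 medians of 652 and 152 (1.98, SE 0.20, adjusted p = 1.83e-07). The strictly inducible HSPA6 stayed between 15.4 and 174 in HCT116 and between 35.8 and 261 in RKO, and CRYAB between 48.4 and 237 and between 42.4 and 287. DNAJB2, a co-chaperone rich in neurons, read 283 to 444 and 138 to 282 (0.64, adjusted p = 0.024), and its call was lost without the 2 RKO arrays in doubt (adjusted p = 0.0787) and in 4 of 16 fits that left out 1 array, those without RKO TSA, RKO PJ-34/5-aza-dC/TSA, HCT116 PJ-34 or HCT116 PJ-34/5-aza-dC/TSA, with values from 0.51 to 0.77 over the 16 fits.

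HSPE1 was lower in HCT116 (-0.37, SE 0.06, adjusted p = 2.86e-05). Its lines differed where TSA was absent, 21516 to 25863 against 36736 to 38382, and overlapped where it was present. HSPD1 was higher (0.16, SE 0.05, adjusted p = 0.0218), a call lost without the RKO TSA array, without the HCT116 PJ-34 array and without the 2 RKO arrays in doubt (adjusted p = 0.0694), and after quantile normalization its difference was -0.067. HSF1 was lower (-0.39, SE 0.15, adjusted p = 0.0457), a call lost in 10 of 16 fits that left out 1 array, all but those without RKO PJ-34, RKO TSA, RKO PJ-34/5-aza-dC/TSA, HCT116 PJ-34/5-aza-dC, HCT116 PJ-34/TSA or HCT116 5-aza-dC/TSA, with values from -0.52 to -0.24, and HSPB11 higher (0.63, SE 0.09, adjusted p = 6.49e-06).

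Different probe sets of a gene were not equal witnesses of the line difference. Of 33 further probe sets of the called members, 24 pointed the same way and 5 were called the opposite way, namely 200799_at of HSPA1A/HSPA1B (1.19), 208814_at of HSPA4 (1.57), 230031_at of HSPA5 (1.44), and 243372_at (-1.20) and 241716_at (-1.34) of HSPD1. For TSA in HCT116, 11 of 12 further probe sets pointed the same way, 6 of them past the threshold, and the remaining 1 was 200799_at. Of the 3 pathway lists, the ER list had 6 genes higher and 12 lower in HCT116 of 24 tested (median -0.20), the cytosolic list 6 and 5 of 21, and the mitochondrial list 4 and 4 of 13, beside the 26.8% higher and 24.2% lower among all genes.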

How the data were processed

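Signals of Affymetrix Human Genome U133 Plus 2.0 arrays were used as deposited: linear intensity values that, per the labels, the authors obtained with GCOS, 1 array per condition and line, scaled to a common target and not log-transformed. Probe sets were named through the platform annotation, 41097 with 1 symbol, 1801 with several and 11777 with none. Control probe sets were left out. Signals were raised to a floor of 50 before log2, and a probe set entered a fit where 4 or more of its arrays reached 100. limma 3.58.1 in R 4.3.3 was fitted with additive terms for the 3 drugs within each line, and with line and its interactions over all 16 arrays (eBayes with a variance trend), with Benjamini-Hochberg adjustment over all probe sets tested. The procedure was tested on simulated data. Array replicates do not exist, so the number of arrays limits the precision.

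All members are accounted for. Members past a test were named with their values, up to 6 per comparison with the smallest p, and of each related list up to 3 genes per drug and line. Genes named beyond that, and the 5-aza-dC by TSA interaction, were chosen after their values were seen. Members and lists were chosen with earlier results of these data known. Promoters are RefSeq's, of which 33 members matched, with 44 promoters. Alternatives were other floors, no filter, quantile normalization, no variance trend, the mean over all probe sets of a gene, 1 fit of all 16 arrays, each array left out, and 2 added after seeing the data.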

Additional observations from a re-analysis of the deposited data

Results flagged for a closer look

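The difference between the lines in the TSA effect of HSPE1, the lid of the mitochondrial chaperonin, passed the test (0.58 on the log2 scale, adjusted p = 0.038 in the limma fit of all 16 arrays). The call was not firm. It was lost in 12 of 16 fits that left out 1 array and without the 2 RKO arrays in doubt (limma adjusted p = 0.174). HSPE1 was 1.49-fold higher with TSA in HCT116 and close to equal in RKO (log2 difference -0.01), where it stood at 36339.7 to 39005 in all 8 arrays.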

How the results depend on the processing

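For TSA in HCT116 the 11 members called became 0 without the filter on low signals, 0 without the variance trend (where no gene was called at all) and 7 with the mean over all probe sets of a gene, and 4 to 15 when 1 array was left out. For 5-aza-dC in HCT116 the 0 called became 2 after quantile normalization and 1 with the mean over probe sets, and 0 to 8 when 1 array was left out. For the difference between the lines in the TSA effect the 1 called became 0 without the filter, 0 without the variance trend and 0 without the 2 RKO arrays whose labels are in doubt, and 0 to 6 when 1 array was left out. The sign turned with the mean over all probe sets for HSPA1A/HSPA1B with TSA in HCT116 (-0.63) and, between the lines, for HSPA1A/HSPA1B (0.29), HSPA5 (0.57) and HSPD1 (-0.48), for HSPD1 between the lines after quantile normalization (-0.067), and for DNAJB6 with TSA when its brighter probe set, shared with TMEM135, was used (-0.020). The mean over all probe sets leaves out those of several symbols, such as 200800_s_at of HSPA1A/HSPA1B. The cause of these turns was not tested. After quantile normalization the members called between the lines were 7 higher and 14 lower, against 9 and 12. Apart from the fit for TSA in HCT116 without the variance trend, shares of all genes called in these other fits are not given here. No paired analysis was possible by replicate number because all arrays carry the same number. Over the 4 pairs of HCT116 arrays matched on the other drugs, each of the 9 members that rose with TSA was higher in 4 of 4, and both that fell were higher in 0 of 4. These members had been called from the same 8 arrays, so the pairs only describe the calls and are no separate test of them.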
